A study of Mus musculus with 2 samples.

Results

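Messages of the cytosolic ribosomal protein genes were read as long molecules in the left cerebral cortex of old mice. The genes were chosen by name and annotation among genes with reads, whatever their level, as protein-coding genes whose name begins Rpl or Rps followed by a number, together with Rplp0, Rplp1, Rplp2 and Rpsa. Ribosomal S6 kinases, names starting Gm, and Rps27a, whose protein is made fused to ubiquitin, were left out. The rule found 86 genes of the 18534 annotated genes with reads. A further 5 annotated genes fit the name but had 0 reads in both libraries, namely Rpl3l, Rpl10l, Rpl39l, Rpl36-ps4 and Rpl9-ps1. Of the 86, 46 encode proteins of the large subunit and 30 encode proteins of the small subunit. There were 4 paralogues (Rpl7l1, Rpl22l1, Rpl36al and Rps27l) and 5 intronless genes annotated as coding (Rps27rt, Rpl10-ps3, Rpl9-ps6, Rps12-ps3 and Rpl36a-ps1). The last gene, Rps19bp1, encodes a protein that binds Rps19 and is no ribosomal protein itself, although its name passes the rule.

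The mice were B6CASTF1/J, a cross of the laboratory strain C57BL/6J with the wild-derived CAST/EiJ strain, aged 18-20 months, and 2 µg of RNA went into each library. All samples belonged to 1 group of 2 libraries, and the labels gave no treatment, genotype or time contrast. The libraries are labelled as biological replicates 1 and 2 but share a donor entry. A p-value between them therefore measures counting error between these samples, whose spread may be technical. The labels disagree on the sex of the animals, which was not used here.

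Each ribosome is built from ribosomal RNA and a fixed set of proteins, most of them present once per particle. The large subunit joins amino acids, and the small subunit reads the messenger RNA. Messages for these proteins are known to begin with a tract of pyrimidines, the 5′ terminal oligopyrimidine or TOP tract, through which mTOR signalling controls their translation. The mammalian genome also carries many intronless copies of these genes, made by reverse transcription of the spliced messages.

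The library of replicate 1 had 871524 reads in all, with 774629 on annotated genes, and that of replicate 2 had 839150 reads, with 679147 on annotated genes. Levels are given as CPM, the reads of a gene scaled to a total of 1000000 reads on annotated genes. One long read was taken to stand for 1 molecule, so CPM was not divided by length. Whether molecules of different length were recovered equally was not tested. A count of 0 reads allows a level of up to 3.87 CPM in replicate 1 and 4.42 CPM in replicate 2, which is 3 counts of the total. This floor and the intervals below cover counting error only. All 8 cortex markers had reads, with a summed level of 6264 CPM in replicate 1 and 5950 CPM in replicate 2. Of 6 markers of other tissue or blood, 5 had reads, summing to 407 CPM and 218 CPM. The haemoglobin gene Hba-a1 gave most of that sum, with 193 reads in replicate 1 and 76 in replicate 2. Of the choroid plexus genes listed, Folr1 was at 0 in both, while Ttr had 18 reads in replicate 1 and 5 in replicate 2. Reads on the opposite strand of annotated genes made up 8.87% of mouse reads in replicate 1 and 16.9% in replicate 2. In bulk tissue, a lower level in fewer cells and less RNA per cell cannot be told apart.

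The sequence at the start of these genes was set out first, since the TOP tract is the feature by which the messages are known. RefSeq promoter sequences on GRCm38.p6, spanning 250 bases before to 50 after each gene's start, were matched for 63 of the 86 genes. Below, 50 bases around the start of 6 of them are given (30 before and 20 from the start on), with the longest run of C and T near the start in capitals. All 6 were picked from the 13 genes with a strict tract, counted below, to show both subunits and tracts of different length. Most of the 63 genes have no such tract, and none of those is shown. They lie at chr17:33955646-33955695 (Rps18, minus strand), chr2:180257349-180257398 (Rps21, plus), chr3:90213629-90213678 (Rps27, minus), chr4:86857348-86857397 (Rps6, minus), chr9:120571487-120571536 (Rpl14, plus) and chr11:114668550-114668599 (Rpl38, plus).
Rps18: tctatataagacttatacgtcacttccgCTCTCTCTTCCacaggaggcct
Rps21: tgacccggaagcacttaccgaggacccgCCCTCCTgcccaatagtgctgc
Rps27: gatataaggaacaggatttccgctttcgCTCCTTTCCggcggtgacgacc
Rps6: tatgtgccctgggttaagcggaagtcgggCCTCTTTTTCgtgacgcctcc
Rpl14: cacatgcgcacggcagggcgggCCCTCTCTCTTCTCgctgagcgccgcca
Rpl38: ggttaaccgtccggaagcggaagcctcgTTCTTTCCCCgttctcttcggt

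A strict tract was counted where the RefSeq start was a C followed by at least 4 more pyrimidines. It was present in 13 of the 63 genes (20.6%), against 163 of 6683 tested coding genes with a promoter sequence (2.44%). The 13 were Rpl14, Rpl15, Rpl28, Rpl35, Rpl38, Rplp2, Rps6, Rps10, Rps15a, Rps18, Rps21, Rps27 and the intronless Rps27rt. A C stood at the start in 22 of the 63 genes (34.9%) and in 15.04% of all genes. A looser measure took any pyrimidine run touching the 5 bases on either side of the start. Such a run of 5 or more was held by 33 of the 63 genes (52.4%) against 31.4% of all genes, and a run of 8 or more by 21 (33.3%) against 9.71%. The annotated start can miss the true first base, and the deposited tables give no start for single reads. The median distance of the RefSeq start from the start in the files' annotation was 20 nt for the ribosomal protein genes and 15 nt for all genes.

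Fixed motifs were searched on both strands of the same 300-base windows, each on its own, so that matches of different motifs may overlap. The Ets-type motif ACTTCCGG was present in 11 of the 63 windows (17.5%), against 9.58% of all windows. The CGCG element, a palindrome known as a binding motif of BANP, was found in 5 windows (7.94%), those of Rpl12, Rpl26, Rps6, Rps19 and Rps28, against 1.17% of all. For ATGGCGGC, part of the YY1 motif, 4 windows (6.35%) matched, against 6.05%. The TATA-box core TATAAA was in 6 windows (9.52%), against 6.13%. The median GC content of the windows was 58.0% in the ribosomal protein genes and 62.3% in all genes. A match is a description of these letters and no evidence of binding.

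The 86 genes took 9936 reads in replicate 1 and 7481 in replicate 2, which was 1.28% (95% Wilson interval 1.26% to 1.31%) and 1.10% (1.08% to 1.13%) of the reads on annotated genes. Their summed level was 11921 ± 1281 CPM (SD, n = 2). Large-subunit genes gave 7975 ± 795 CPM and small-subunit genes 3507 ± 475 CPM (SD, n = 2). The median gene stood at 97.98 CPM, against 21.1 CPM for all protein-coding genes. Levels ran from 0.645 CPM in the intronless Rpl36a-ps1 to 902 CPM in Rpl3. Over the 76 genes of subunit proteins they ran from 12.7 to 902 CPM, a 70.9-fold range. The 10 highest genes held 36.7% of the reads of the group. The order of genes was close between the libraries, with r = 0.967 on log2(CPM + 1) and Spearman's rho = 0.971 across the 86 genes, which share their libraries and are not independent.

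Rpl3 (chr15:80077791-80083337, minus strand, mm10), which reaches towards the peptidyl transferase centre of the large subunit, had the highest level, with 693 reads in replicate 1 and 617 in replicate 2 (902 ± 9.81 CPM, SD, n = 2). It ranked 97 among all annotated genes. Rpl4 (chr9:64173375-64178666, plus strand), whose protein lines the exit tunnel, had 476 and 353 reads (567 ± 67.0 CPM). Rpl3 thus stood above Rpl4 by more than the spread between the libraries. Rpl41, which encodes the shortest ribosomal protein, had 351 reads in replicate 1 and 254 in replicate 2. Rpl13 had 342 and 209 reads, and Rpl6 had 297 and 189. Below them came Rplp0, the base of the P stalk that recruits elongation factors, with 261 reads in replicate 1 and 200 in replicate 2. Rpl9 had 183 and 247 reads, Rpl19 had 212 and 205, and Rpl13a had 237 and 180. From Rplp0 down to Rpl13a the mean levels lay between 316 and 285 CPM, and neighbours in the order did not differ beyond the spread. By reads on the genes alone, all of the 10 highest belonged to the large subunit. With reads on intronless copies added, described below, Rps6 of the small subunit had 414 CPM, above Rpl13 with its copies at 393 CPM.

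The other P-stalk genes were lower than Rplp0. Rplp1 had 150 reads in replicate 1 and 75 in replicate 2 (152 ± 58.8 CPM), and Rplp2 had 97 and 59 reads (106 ± 27.1 CPM). Both proteins are known to bind Rplp0 as dimers. Each had fewer reads than Rplp0 in both libraries.

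Among small-subunit genes, copies not counted, the highest level was that of Rps14, with 197 reads in replicate 1 and 160 in replicate 2 (245 ± 13.2 CPM, SD). Rps3, at the messenger RNA entry channel, had 200 and 154 reads (242 ± 22.2 CPM), and Rps3a1 had 197 and 149 (237 ± 24.7 CPM). These genes did not differ beyond the spread. Rps6, the small-subunit protein phosphorylated by S6 kinases, had 159 reads in replicate 1 and 138 in replicate 2 (204 ± 1.46 CPM). The median gene of the large subunit had 119 CPM and that of the small subunit 101 CPM.

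The 10 lowest genes lay at 23.1 CPM or below. The intronless Rpl36a-ps1 had 1 read in replicate 1 and 0 in replicate 2, and Rps12-ps3 had 9 and 2 reads. Rpl10, which joins the large subunit late in its assembly, had 14 reads in replicate 1 and 5 in replicate 2 (12.7 ± 7.57 CPM). Rpl17, by the exit tunnel, had 12 and 9 reads, the paralogue Rps27l had 13 and 12, and the intronless Rpl9-ps6 had 8 and 17. Rpl30 had 15 reads in each library. Rpl35a had 18 reads in replicate 1 and 13 in replicate 2, Rps20 had 20 and 12, and Rps24 had 21 and 13. Rpl10, Rpl17, Rpl30 and Rpl35a had more reads on intronless copies than on the gene, as described below, whereas Rps20 had 0 reads on copies and Rps24 had 1 in replicate 1 and 2 in replicate 2.

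**Figure D1:**
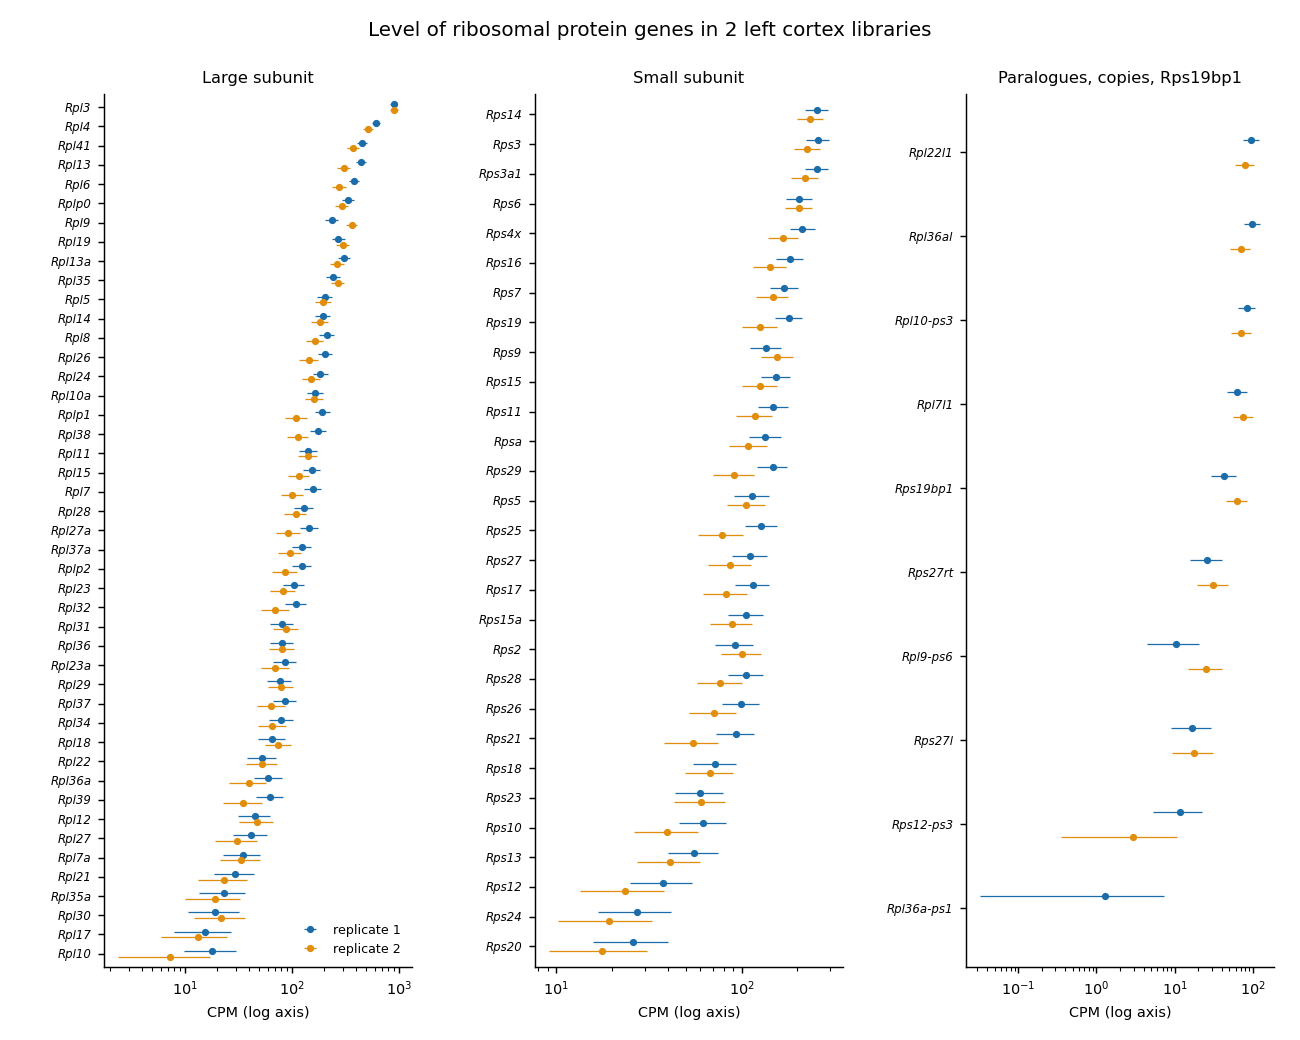
Level in CPM (log axis) of the ribosomal protein genes in replicate 1 (blue) and replicate 2 (orange), ordered by mean within the large subunit, the small subunit and the other genes, with exact Poisson 95% intervals that cover counting error. The points of both libraries lie close for most genes, Rpl3 is highest at 902 CPM, and Rpl36a-ps1 has no point in replicate 2 because it had 0 reads there.

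Length changed the order of the genes. Divided by the read-weighted length of the models, the mean level was 720 CPM per kb for Rpl41, 667 for Rpl3, 472 for Rpl13, 397 for Rpl9 and 390 for Rpl38. Rpl38 thus ranked 6 per kb, while by CPM it ranked 27. The length of a model depends on how the reads of a library were collapsed. Per kb values are therefore given as an order and not compared by a test. Across genes, Spearman's rho between CPM and length was 0.206 in replicate 1 (n = 86) and 0.237 in replicate 2 (n = 85). With CPM per kb it was -0.239 and -0.205, so the sign depends on the scale. CPM per kb is itself divided by that length, which shifts rho downwards by construction.

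Paralogues stood on either side of their partners. Rpl22l1 had 73 reads in replicate 1 and 53 in replicate 2 (86.1 ± 11.5 CPM), above Rpl22 with 41 and 36 reads (53.0 ± 0.0559 CPM). Rpl36al had 76 and 47 reads, against 47 and 27 for Rpl36a. These paralogues were higher than their partners in both libraries. Rpl7l1 had 49 reads in replicate 1 and 51 in replicate 2, against 122 and 69 for Rpl7. Rps27l, known as a p53 target, had 13 and 12 reads, against 86 and 59 for Rps27. Rpl3l of striated muscle and Rpl10l and Rpl39l of the testis had 0 reads, which allows up to 3.87 CPM in replicate 1 and 4.42 CPM in replicate 2. Their partners Rpl3 and Rpl39 had 693 and 49 reads in replicate 1 and 617 and 24 in replicate 2. Rps4l is annotated as a transcribed processed pseudogene and so is not among the 86 genes. It had 8 reads in replicate 1 and 10 in replicate 2, against 165 and 114 for Rps4x. Rps19bp1 had 33 reads in replicate 1 and 42 in replicate 2 (52.2 ± 13.6 CPM).

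Most of these genes had a higher CPM in replicate 1. Each gene with at least 20 reads in total was compared by a two-sided exact binomial test against the library totals, with Benjamini-Hochberg adjustment over all 9143 genes tested, and ratios are log2 of CPM + 1 in replicate 1 over that in replicate 2. Of the 86 genes, 83 were tested, and Rpl10, Rps12-ps3 and Rpl36a-ps1 were not. At an adjusted p of 0.05, 4 of 83 were called, against 182 of all genes tested (1.99%). Of these, 3 were higher in replicate 1 (0.733% of all genes) and 1 was lower (1.26% of all genes). At an unadjusted p of 0.05 there were 20 of the 83 (24.1%), against 1075 of all genes (11.8%). The test can detect smaller ratios in genes with more reads, and these shares were not matched for level. The ratio was positive in 64 of the 83 genes (77.1%) and in 47.3% of all genes, and the median log2 ratio was 0.27 against -0.03.

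Rpl9 (chr5:65388364-65390991, minus strand, mm10), a large-subunit gene, was lower in replicate 1, with 183 reads against 247. Its log2 ratio was -0.62 with an SE of 0.14 from counting alone, and the exact binomial test gave an adjusted p of 0.00152. Its intronless copy Rpl9-ps6 had 8 and 17 reads, which was not called. The genes higher in replicate 1 were Rplp1, Rpl13 and Rpl6. Rplp1 (chr9:61913284-61913962, minus strand) had 150 reads against 75, with a log2 ratio of 0.80 (SE 0.20, adjusted p = 0.00616, exact binomial test). Rpl13 (chr8:123102350-123105231, plus strand) had a log2 ratio of 0.52 (SE 0.13, adjusted p = 0.00397, exact binomial test). Rpl6 (chr5:121204481-121208966, plus strand) had 0.46 (SE 0.13, adjusted p = 0.0323, exact binomial test). The call of Rpl6 was lost without the read minimum (adjusted p = 0.0586). On annotated transcripts alone both Rpl13 (0.0522) and Rpl6 (0.0532) lost theirs in the exact binomial test.

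Genes of both subunits leaned towards replicate 1. Large-subunit genes had a median log2 ratio of 0.27, with 34 of 45 positive (75.6%), and small-subunit genes 0.34, with 27 of 30 positive and none called. Of the large-subunit genes 15 of 45 (33.3%) had an unadjusted p under 0.05, against 11.8% of all genes. Of the small-subunit genes 4 of 30 (13.3%) did, near the share of all genes. Short messages in general leaned the same way. Genes with a mean model length under 1000 nt, the ribosomal protein genes left out, had a median log2 ratio of 0.12, with 61.0% of 541 genes positive, while genes of 1000 nt or more had -0.04. Within the length classes up to 2000 nt the median of the ribosomal protein genes lay above that of the other genes: 0.62 against 0.06 under 500 nt (7 genes tested), 0.29 against 0.18 from 500 to 700 nt, 0.18 against 0.10 from 700 to 900 nt, 0.21 against 0.04 from 900 to 1200 nt, and 0.27 against 0.03 from 1200 to 2000 nt. Read-weighted median model length over all genes was 2117 nt in replicate 1 and 2193 nt in replicate 2, and over the ribosomal protein genes 851 and 915 nt. Some cell markers were also higher in replicate 1. Hba-a1 of blood had 193 reads in replicate 1 and 76 in replicate 2. Cldn5 of endothelial cells had 205 and 117 reads (log2 ratio 0.62, adjusted p = 0.0151, exact binomial test), and Mbp of myelin had 1154 and 862 (0.23, adjusted p = 0.0259, exact binomial test). The other 6 cortex markers were not called. The part of length, blood or cell types in the ratio was not tested.

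**Figure D2:**
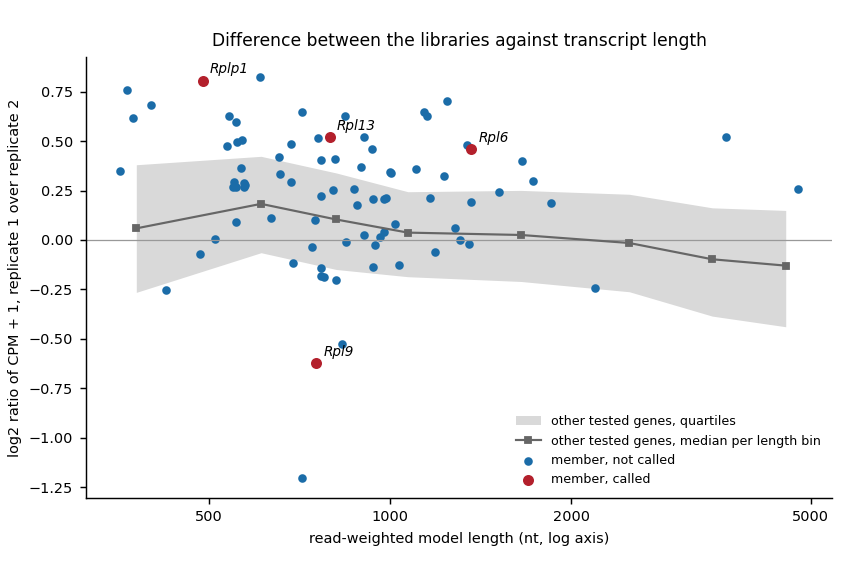
Log2 ratio of replicate 1 over replicate 2 against read-weighted model length (log axis) for the ribosomal protein genes tested (points; red, called), with the median (grey line) and quartiles (grey band) of the other tested genes per length class. Of the 83 ribosomal protein genes, 64 lie above 0 and 4 were called, namely Rplp1, Rpl13 and Rpl6 above 0 and Rpl9 below it.

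Other genes of protein synthesis were set beside them as a description. Among ribosomal proteins under other names, Fau had 117 reads in replicate 1 and 68 in replicate 2, Rps27a had 116 and 84, and Rack1 had 74 and 54. Their log2 ratios were 0.59, 0.27 and 0.26, and none of these genes was called. Of 18 genes known for TOP messages, such as Eef1a1 and Eef2, which encode elongation factors, 17 were tested, 15 were positive, the median was 0.14 and none was called. Of 20 ribosome assembly genes, including Ncl and Npm1 of the nucleolus, 18 were tested, with 11 positive, a median of 0.12 and none called. Of 80 annotated genes named for the mitochondrial ribosome, 2 are processed pseudogenes and were not tested, and the other 78 were tested, with 42 positive, a median of 0.03 and none called. At an unadjusted p of 0.05 there were 2 TOP-message genes (11.8%), 1 assembly gene (5.56%) and 7 mitochondrial ribosome genes (8.97%), against 11.8% of all genes. The mitochondrial list summed to 5036 CPM in replicate 1 and 4906 CPM in replicate 2, while the ribosomal protein genes summed to 12827 and 11015 CPM.

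Most reads lay on annotated splice patterns. The 86 genes had 653 transcript models, of which 218 were annotated, with a median of 7 per gene and the most (27) in Rpl4. Models carry a class in which Known means an annotated intron chain, and the others are incomplete, new combinations or new junctions, or unspliced genomic sequence. Known models held 89.6% of the reads in replicate 1 (89.0% to 90.2%) and 88.8% in replicate 2 (88.0% to 89.5%), against 71.1% and 68.2% for all protein-coding genes. Incomplete models held 8.21% and 8.18%, and unspliced genomic models 0.594% and 0.842%, against 6.51% and 7.64% for all coding genes. Among Known reads, 95.7% in replicate 1 and 95.2% in replicate 2 were on coding transcripts. Retained-intron transcripts held 2.74% and 2.94%, against 1.37% and 1.76% for all coding genes. Transcripts annotated for nonsense-mediated decay held only 9 and 7 reads (0.101% and 0.105%), against 0.470% and 0.510%. Models with new combinations held 0.624% in replicate 1 and 0.856% in replicate 2, against 6.73% and 7.17% for all coding genes. Those with new junctions held 0.986% and 1.36%, against 3.93% and 4.43%. Unspliced genomic models and models with new combinations or junctions were a smaller share of these reads than of coding genes in general, while retained-intron transcripts were a larger one. Rpl5 alone gave 110 of the 244 retained-intron reads in replicate 1 and 92 of the 195 in replicate 2. Without Rpl5 the retained-intron share was 1.52% in replicate 1 and 1.58% in replicate 2, above that of all coding genes in replicate 1 and below it in replicate 2.

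Introns were also compared with those of a reference coding transcript, for 81 genes with a multi-exon coding transcript. The reference was the leading coding transcript, or a longer coding transcript with reads where the leading one was its 3′ part. A 3′ part can therefore be an annotated coding transcript itself. The complete set of introns was found in 80.8% of reads in replicate 1 and 79.3% in replicate 2, against 64.4% and 61.7% for 11619 coding genes. A 3′ part of the intron set, with the upstream introns missing, was found in 13.6% of reads in each library, against 9.82% and 10.2%. A few genes held many of these reads, among them Rpl5 with 114 of 1333 in replicate 1 and 92 of 1009 in replicate 2. The summed share is therefore not that of a typical gene. A read truncated at its 5′ end, a later start and a retained intron cannot be told apart from the deposited models. Per gene, at 20 or more reads in each library, the median share of complete reads over 72 genes was 85.5% in replicate 1 and 84.7% in replicate 2, against 64.1% and 61.9% over 5691 coding genes. The ribosomal protein genes had a median of 4 introns and the coding genes 8.

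Among the highest, Rps29 had complete introns in 98.2% of reads in replicate 1 and 98.4% in replicate 2, Rpl35 in 98.4% and 96.7%, and Rps16 in 97.9% and 99.0%. At the other end, 11 of the 72 genes had more than 20% of reads with a 3′ part (15.3%, against 10.8% of coding genes). Rpl5, which carries 5S ribosomal RNA into the ribosome, had 72.2% in replicate 1 and 69.2% in replicate 2, and Rpl28 had 62.4% and 66.2%. Most of these Rpl28 reads were on its leading coding transcript Rpl28-202 (60 in replicate 1 and 47 in replicate 2), since the longer Rpl28-201 was the reference. Rpl7a had 44.4% and 52.2%, Rpl31 36.5% and 55.0%, and Rps21 48.6% and 37.8%. In Rpl31 the reference was Rpl31-201, and the leading coding transcript Rpl31-203, a 3′ part of it, had 18 and 30 reads. Lower shares were those of Rps6, Rps9, Rpl8, Rpl36 and Rpsa, at 21.4% to 31.9%. In every one of the 11 the share exceeded 20% in both libraries.

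**Figure D3:**
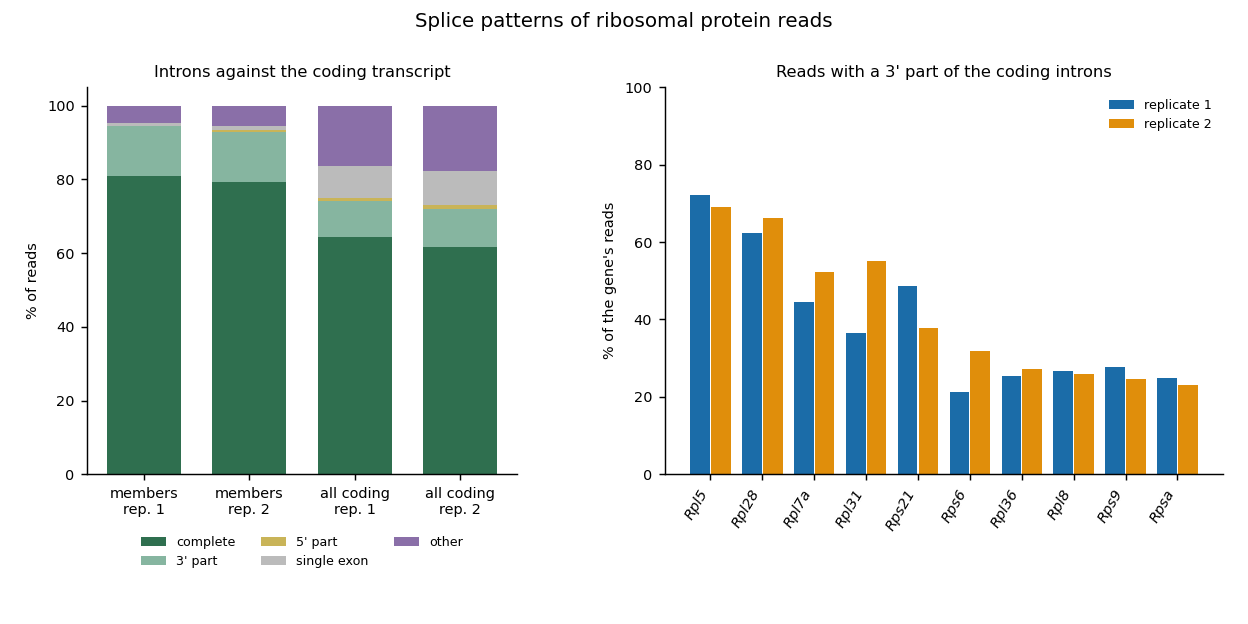
Left, share of reads whose introns match the reference coding transcript completely, in a 3′ or 5′ part, not at all (single exon) or otherwise, for the ribosomal protein genes and all coding genes in each library. Right, ribosomal protein genes with more than 20% of reads holding only a 3′ part of the reference introns, where Rpl5 and Rpl28 exceed 60% in both libraries. For Rpl28 most of these reads are on the annotated coding transcript Rpl28-202.

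Of the 86 genes, 54 had at least 2 transcripts with over 5% of their reads. The leading transcript held a median of 85.6% of reads in replicate 1 and 85.1% in replicate 2 over 74 genes, against 68.3% and 65.9% over 6116 genes. In 71 of the 74 it was an annotated coding transcript. The share of the leading transcript differed between the libraries for none of the 74 genes by a two-sided Fisher exact test with Benjamini-Hochberg adjustment, against 10 of all 6116 genes (0.164%), while 7 of the 74 (9.46%) had an unadjusted p under 0.05, against 401 of the 6116 (6.56%).

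In Rpl5 the leading model was Rpl5-204, annotated as a retained intron, with 110 of 158 reads in replicate 1 (69.6%) and 92 of 133 in replicate 2 (69.2%). It has 3 exons, against 8 in the coding transcript Rpl5-201, which had 40 and 36 reads. The leading model thus has fewer exons than the coding transcript. In Rpl22 the leading Rpl22-205 is annotated as a processed transcript, with 28 reads in replicate 1 and 17 in replicate 2. It has the same introns as 3 coding transcripts and differs from them at its ends.

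Second transcripts of other genes had reads in both libraries. Rpl41-206 held 47 reads in replicate 1 and 36 in replicate 2 (13.4% and 14.2%) beside Rpl41-201 with 286 and 204. Rpl13a-203 held 18.1% and 17.2%, and an unannotated 6-exon model of Rpl6 held 17.2% and 24.9%. Rps6-204 had 32 and 43 reads (20.1% and 31.2%) beside Rps6-201 with 121 and 88. Rpl28-202 had 60 and 47 reads (59.4% and 63.5%) against 36 and 23 for Rpl28-201. In Rps28 the share of Rps28-205 was 63 of 82 reads in replicate 1 (76.8%) and 25 of 52 in replicate 2 (48.1%), which was not called (Fisher exact test, Benjamini-Hochberg adjusted p = 0.132). In replicate 2, 17 further reads lay on single-exon models of Rps28, 15 of them on a model of 5150 nt, and in replicate 1 there were 0. Most of the 5150-nt model (chr17:33815529-33820678) lies outside the annotated gene (chr17:33819027-33824484), yet its reads count among the 52.

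Some alternative splice sites differ by few bases. Rpl22l1-206 and Rpl22l1-201 differ by 3 nt at the acceptor of the second exon, at position 28806503 and position 28806500 of chromosome 3. The site of Rpl22l1-201 was used in 24.6% of 69 reads in replicate 1 and 36.7% of 49 in replicate 2. The bases at the join of exons 1 and 2 are given to show that the extra bases, in capitals, add a whole codon after the start codon, so that the frame is kept. The sequences are from GENCODE M21 transcripts.
Rpl22l1-201: aacatggcgccgCAGaaagacaagaag
Rpl22l1-206: aacatggcgccgaaagacaagaag
In Rpl38 the second 5′ splice site lay 17 nt from the first and was used in 29.5% of reads in replicate 1 and 38.03% in replicate 2. In Rpl7l1 the distance was 5 nt (22.9% and 44.9%), in Rps28 4 nt (20.7% and 25.7%), and in Rpl31 72 nt (44.4% and 52.4%). Neither site thus accounted for all reads in either library.

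The leading model of Rps24, with 9 of 21 reads in replicate 1 and 6 of 13 in replicate 2, was unannotated. Its exon 5, of 36 nt at chr14:24494052-24494087 (mm10), was present in 12 of 13 informative reads in replicate 1 and 6 of 8 in replicate 2, under the 20-read minimum of the test. It shares its start with an annotated exon of 18 nt. The end of exon 4 is given with what follows up to the first stop codon in capitals, with and without that exon, because its reads end the reading frame differently. The stop is codon 2 with the exon and codon 4 without it.
Rps24 with exon: gctggcaaaaagAAATGA
Rps24 without exon: gctggcaaaaagCCAAAGGAGTAG

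Few cassette exons could be measured. The only cassette exon with at least 20 informative reads in each library was the 154-nt exon of Rpl22 at chr4:152329260-152329413. It was included in 1 of 30 reads in replicate 1 (3.33%, Wilson interval 0.591% to 16.7%) and 3 of 28 in replicate 2 (10.7%, 3.71% to 27.2%), a difference that was not called (two-sided Fisher exact test, p = 0.344, Benjamini-Hochberg adjusted p = 1). Of all 1519 cassette exons tested, 1 was called (0.0658%). Below that depth, Rpl10 had a 163-nt exon in 8 of 9 and 5 of 5 reads, and Rpl21 a 93-nt exon in 0 of 4 and 1 of 3.

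Intronless copies took a large share of reads for some proteins. By name, 60 ribosomal protein pseudogenes had 1023 reads in replicate 1 and 855 in replicate 2. By sequence, 156 pseudogenes matched a subunit gene over at least 70% of their length at 90% identity or more, with a median identity of 99.1%. They had 1909 reads in replicate 1 and 1586 in replicate 2, which was 16.1% and 17.5% of the reads on the 86 genes and these pseudogenes together. They were also 20.9% and 21.03% of all reads on pseudogenes. The shares per gene below also count the 5 intronless genes annotated as coding as copies. Of 76 subunit genes, 64 had a copy with reads, 28 had over 10% of their combined reads on copies in both libraries, and 8 had over 50%. The processed pseudogenes Rpl37rt and Rps4l were not among the copies found, so these counts and shares leave them out. Rpl37rt had 76 reads in replicate 1 and 39 in replicate 2, against 67 and 44 for Rpl37. Reads from a message and from a near-identical copy can be assigned to the wrong one by the alignment, so these levels are uncertain.

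The 8 genes with most reads on copies were Rpl21 (88.3% in replicate 1 and 88.9% in replicate 2), Rpl17 (87.5% and 85.7%), Rpl10 (82.1% and 90.7%), Rpl35a (83.5% and 81.2%), Rps2 (66.5% and 68.5%), Rpl30 (64.3% and 54.5%), Rpl27 (55.6% and 53.3%) and Rps6 (50.6% and 50.7%). Rps2-ps13 on chromosome X had 129 reads in replicate 1 and 122 in replicate 2, against 71 and 68 for Rps2. Rpl3-ps1, also on chromosome X, had 294 and 268 reads, and with it Rpl3 had 29.9% and 30.3% of its combined reads on copies. Rpl10-ps3, annotated as coding and so among the 86 genes, had 64 and 48 reads, against 14 and 5 for Rpl10. Together, a gene and its copies ranged from 21.7 to 1290 CPM with a median of 142 CPM. The fold range over genes was 59.3, against 70.9 for the genes alone, so adding the copies narrowed it little.

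How alike a gene and its copy are is shown by the 40 bases around an exon join of the gene, 20 on each side, with bases that differ in capitals (GENCODE M21 transcripts). The copies lie on chromosome X for Rps2-ps13 (chrX:52898588-52899469, plus strand) and Rpl21-ps15 (chrX:151215167-151215649, minus strand), and on chromosome 12 for Rps19-ps6 (chr12:110898114-110898551, plus strand). Rps2 and its copy are identical here, although Rps2 has an intron at this join.
Rps2: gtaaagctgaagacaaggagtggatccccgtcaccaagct
Rps2-ps13: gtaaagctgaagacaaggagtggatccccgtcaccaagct
Rpl21: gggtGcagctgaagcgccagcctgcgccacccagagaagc
Rpl21-ps15: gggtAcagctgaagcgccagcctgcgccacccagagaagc
Rps19: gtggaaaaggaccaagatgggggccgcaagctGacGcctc
Rps19-ps6: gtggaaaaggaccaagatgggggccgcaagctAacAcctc
The windows hold 0, 1 and 2 differing bases in that order. Rpl21-ps15 had 87 reads in replicate 1 and 49 in replicate 2, and Rps19-ps6 had 78 in each.

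**Figure D4:**
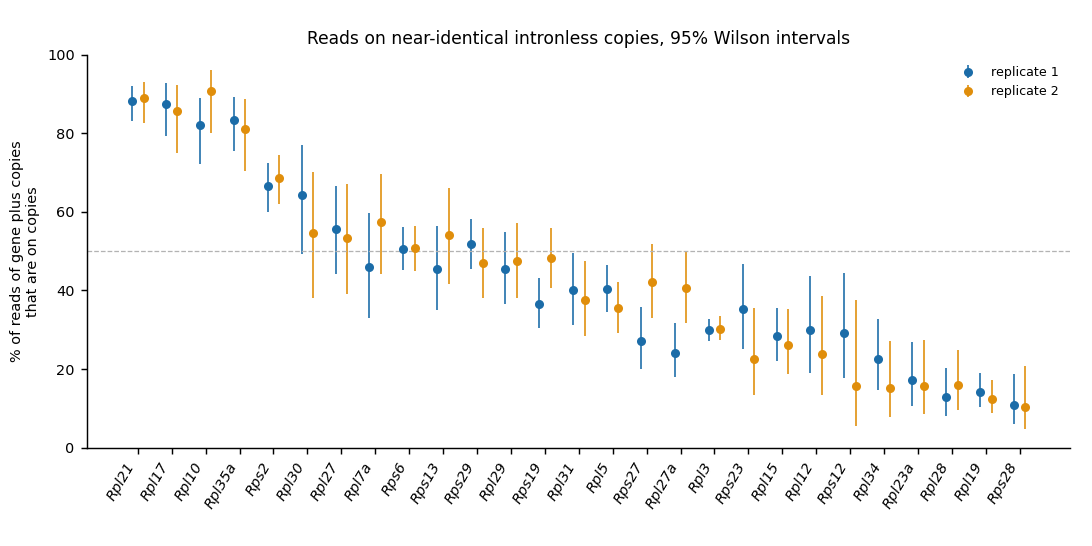
Share of the reads of a subunit gene and its intronless copies that lay on the copies, in percent, in replicate 1 (blue) and replicate 2 (orange) with 95% Wilson intervals, for genes over 10% in both libraries; the dashed line marks 50%. Rpl21, Rpl17, Rpl10, Rpl35a, Rps2, Rpl30, Rpl27 and Rps6 have over 50% on copies in both libraries, and the intervals of Rpl30, Rpl27 and Rps6 include 50%. Rpl37rt is not counted as a copy, so Rpl37 is not drawn.

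Ribosomal protein genes are known hosts of small nucleolar RNAs, which guide modification of ribosomal RNA from within introns. Of the 86 genes, 29 (33.7%) had at least 1 annotated small nucleolar RNA inside, 54 in all, against 157 of 8833 protein-coding genes (1.78%), namely all those tested and the 3 of the 86 that were not. Rpl4 held 5, Rpl13a held 4, and Rpl5, Rpl7a, Rpl17, Rps12 and Rpsa held 3 each.

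Reads opposite to these genes were few. Antisense models overlapped 11 genes with 37 reads in replicate 1 and 7 genes with 40 reads in replicate 2, which was 0.371% and 0.532% of sense and antisense reads together. Rpl26 held 11 and 18 of them. The orientation of the reads was not stated in the labels, so antisense reads are a description only.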

How the data were processed

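Reads of each library were deposited by the authors as whole-number counts per transcript model, with an annotation of the models whose source column names TALON and GENCODE. Per the deposited notes they derive from alignments to mm10 with GENCODE M21, while the aligner, its version and the filters were not given in the sources used here. Per the file headers each table holds 1 library. Exon numbers, lengths and coordinates are as deposited.

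Counts were summed per annotated gene, and spike-in reads (1.577% and 1.332%) were left out. Unannotated models were matched by intron chain. Tests were the exact binomial and Fisher tests (Python 3.11.15, scipy 1.17.1), tested on simulated data. A gene needed 20 reads for the test. TMM and size factors came from edgeR 4.0.16 and DESeq2 1.42.0. Alternatives changed the scaling, the read minimum, the denominator, the models counted and the library left out. Copies were found with blastn 2.17.0. Members and lists were chosen with earlier results of these data known. Named genes were the 10 highest and 10 lowest, those called, those with 0 reads, the most read with several transcripts or a cassette exon, and the paralogue pairs; others named were chosen after their values were seen. Some genes are counted in the totals but not reported by name or drawn here.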

Additional observations from a re-analysis of the deposited data

How the results depend on the processing

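The calls of Rpl9 and Rplp1 held under every scaling, read minimum and choice of models tried. The summed level was 11921 CPM and became 15297 CPM on annotated transcripts, 13415 on multi-exon models, 10309 over all mouse reads, and 14321 with the similar pseudogenes, a choice made after seeing the data; without one replicate it was 11015 to 12827. On annotated transcripts 2 genes were called in place of 4. Without the read minimum, Rpl6 was lost and 3 remained. On multi-exon models 3 of the 4 were called, without Rpl6, and Rps28 was called as well (log2 ratio 1.01). The median log2 ratio was 0.23 to 0.30 throughout. The share on annotated splice patterns was 89.2%, and 89.9% with multi-exon models. The coding share of annotated reads was 95.4%, and 96.7% without Rpl5, also chosen after seeing the data. The pseudogene share by name was 9.80%, and 10.8% on annotated transcripts and 16.8% by similarity. On multi-exon models it was 0.0445%, but that choice drops single-exon models and so reads of intronless copies by construction. Spearman's rho of mean level and length was 0.245 by CPM and turned to -0.189 per kb, where length is also the divisor. The cassette at 50 reads had no value left. No paired analysis was possible because there is only 1 group. Depth limits genes under 20 reads, and the cause of each change was not tested.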
